A study of Mus musculus with 16 samples.

Results

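Acetylation of histone H3 at lysine 27 (H3K27ac) was followed in mouse liver at 8 genes: Thap7, Osbpl5, Bptf, Nav2, Nrg2, Rtn1, Iqck and Oma1. Each was chosen for a region with strongly higher acetylation on a hypothyroid diet in either or both genotypes. A region of the deposited count table belonged to one of these genes when its midpoint lay inside the gene, or when it lay in no gene and the gene was the nearest protein-coding one within 50 kb. This gave 61 of the 52645 regions and 8 of the 11593 genes that hold a region. Of the 61 regions, 54 lay inside a gene and 7 between genes. The region farthest outside its gene was 33.4 kb from Nav2, and 0 regions beyond 50 kb had one of the 8 genes as the nearest gene.

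The study compared NCoR1 knockout (KO) and wild-type (WT) mice of C57BL/6J strain background, fed PTU/LID or chow. PTU/LID is a low-iodine diet with 0.15% propylthiouracil, given from 6 weeks of age for 3 weeks, and all livers were taken on day 21. The 4 groups were KO PTU/LID, KO chow, WT PTU/LID and WT chow, with 3 H3K27ac libraries each. The label of the KO names no Cre driver, no cell type of deletion and no sex. Nor do the labels tie each library to its own animal, so p-values cover the spread between libraries, which may be technical. The 4 input libraries were not analysed here.

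Propylthiouracil blocks the making of thyroid hormone in the thyroid gland. In the liver, thyroid hormone receptors without hormone bind the corepressor NCoR1, which carries histone deacetylase HDAC3, and hormone releases it. H3K27ac marks active promoters and enhancers, so its level around a gene is a readout of regulatory elements and not of the transcript. The mark was measured in whole liver, where fewer cells of a type and less acetylation per cell cannot be told apart. The 8 genes have unlike functions: chromatin (Thap7, Bptf), lipid transfer and membranes of the endoplasmic reticulum (Osbpl5, Rtn1), growth factor signalling (Nrg2), the cytoskeleton (Nav2), a calmodulin-binding motif (Iqck) and mitochondrial quality control (Oma1).

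The genes were chosen from these same libraries, which limits what can be tested. Thap7, Bptf, Nav2, Nrg2 and Rtn1 were taken from the regions that passed the diet test in WT, Iqck and Oma1 from those that passed it in KO, and Osbpl5 from both. Tests are therefore given only in the genotype that did not choose the gene, and values in the choosing genotype are descriptions. The 2 diet comparisons share no library, only the estimate of the spread. For each gene, the lead region is the region with the highest log2 fold change of PTU/LID over chow among those that passed in the choosing genotype. In the choosing comparison, the lead regions ranked 1 (Thap7), 5 (Osbpl5), 7 (Bptf), 13 (Nav2), 14 (Nrg2) and 17 (Rtn1) by fold change among 1949 passing regions in WT, and 1 (Osbpl5), 2 (Iqck) and 18 (Oma1) among 3269 in KO. Levels are in CPM, read counts normalised to library size, and passing means an adjusted p below 0.05 in edgeR's quasi-likelihood test over all regions or all gene sums.

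Total counts ran from 2965505 to 7416187 per library. Libraries are called by their titles. They differed in how much of the count fell on mitochondrial regions (the chrM share), which was 2.27 to 17.25% in 7 libraries and 0.72 to 1.08% in the other 5. All 3 KO chow libraries, Ptulid_NCoRKO_27ac_211, Ptulid_WT_27ac_135, Chow_WT_27ac_96 and Chow_WT_27ac_99 had the higher share. In WT the higher set thus holds 1 PTU/LID and 2 chow libraries and the lower set 2 PTU/LID and 1 chow library, so that every value within a set rests on an arm of 1 library. Dio1, a thyroid hormone target that encodes the hepatic deiodinase, was used as a check of the diet labels. Its summed acetylation averaged 47.9 ± 11.1 CPM in KO PTU/LID and 294.4 ± 42.9 CPM in KO chow, and 48.8 ± 15.5 CPM in WT PTU/LID and 187.1 ± 10.2 CPM in WT chow (SD, n = 3 each). Ncor1 itself did not check the genotype labels, since its acetylation differed by -0.02 ± 0.16 (log2 KO over WT on chow, ± SE).

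Of the marker lists, 1 of 10 hepatocyte genes (Ttr) was higher on PTU/LID in both genotypes. Their sum ran from 4765 to 4956 CPM in KO PTU/LID and 3705 to 4043 CPM in KO chow, without overlap, and from 3230 to 4624 CPM in WT PTU/LID and 3337 to 4254 CPM in WT chow. Over all gene sums, 4.34% passed as higher and 3.11% as lower in KO, and 3.71% as higher and 3.91% as lower in WT. Among genes of other cells, 3 of 11 endothelial genes with a region (Pecam1, Ehd3 and Bmp2) and 1 of 4 Kupffer cell genes (Spi1) were lower on PTU/LID in WT, and Tek was lower in KO. Endothelial genes, of which Kdr has no region, summed to 798.9 to 869.2 CPM in KO PTU/LID and 844.2 to 875.0 CPM in KO chow, and to 893.7 to 1054 CPM in WT PTU/LID and 1072 to 1146 CPM in WT chow, where the diets did not overlap. Sox9, a cholangiocyte gene, was higher in WT and Cd4 was lower in both genotypes, while 0 of 5 stellate cell genes and 0 of 3 neuron genes passed in either by edgeR or DESeq2 (at an unadjusted p below 0.05, 0 and 1). The 3 cholangiocyte genes with a region (Krt19, Krt7 and 2 more have none) summed to 333.0 to 353.9 CPM in KO PTU/LID and 287.6 to 321.7 CPM in KO chow, and to 284.8 to 326.9 CPM in WT PTU/LID and 250.8 to 277.3 CPM in WT chow. The lymphocyte genes with a region summed to 80.7 to 86.4 CPM in KO PTU/LID and 112.9 to 146.8 CPM in KO chow, and to 56.4 to 75.2 CPM in WT PTU/LID and 108.0 to 112.2 CPM in WT chow. Both lists were thus separated by diet in both genotypes, upward for cholangiocyte and downward for lymphocyte genes. The summed stellate cell genes overlapped between diets in both genotypes. Summed neuron genes, of which Tubb3, Map2 and 4 more have no region, ran from 241.5 to 270.6 CPM in KO PTU/LID, 258.0 to 277.7 CPM in KO chow, 249.7 to 324.6 CPM in WT PTU/LID and 264.9 to 281.6 CPM in WT chow. The summed Kupffer cell genes ran from 34.5 to 48.4 CPM in KO PTU/LID and 34.5 to 39.5 CPM in KO chow, and from 35.6 to 36.4 CPM in WT PTU/LID and 49.98 to 69.2 CPM in WT chow, with Clec4f, Adgre1 and 3 more without a region. Whether these lists have a part in the results of the 8 genes was not tested.

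Across the independent tests, 4 of the 5 genes chosen in WT had a higher lead region on PTU/LID in KO as well: Thap7, Bptf, Nrg2 and Rtn1. Nav2 did not pass in KO. Neither of the 2 genes chosen in KO passed with its lead region in WT. Over all regions, 3.28% passed as higher in KO and 1.81% in WT. Summed over their regions, 4 of the 5 genes passed as higher in KO, where 4.34% of all gene sums did, and 1 of the 2 (Iqck) in WT, where 3.71% did. Of the 53 regions of the 5 genes chosen in WT, 9 (17%) were higher and 0 lower in KO, with a median log2 fold change of 0.15 in KO against -0.01 over all regions. Without Nav2, which holds most of these regions, it was 9 of 18. That leaves out the only gene of the 5 that did not pass, so nothing is read from this share. Regions of 1 gene are also not replicates of each other. Of the 4 regions of Iqck and Oma1, 1 (25%) was higher in WT. Counting every comparison, those that chose the genes included, 17 of the 61 regions were higher on PTU/LID in WT and 15 in KO, 12 of them in both. By edgeR 0 were lower in either, as by DESeq2, and 5 in KO and 1 in WT were lower at an unadjusted p below 0.05.

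**Figure D1:**
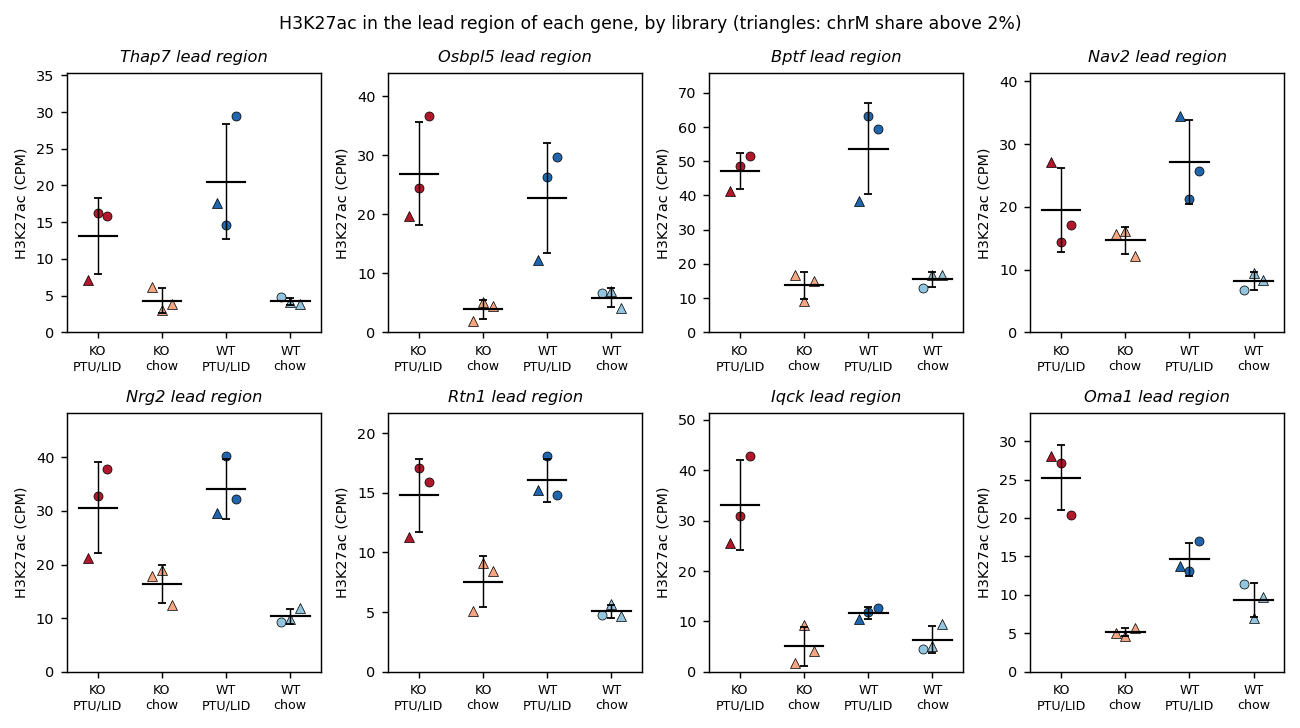
H3K27ac in the lead region of each gene in CPM (vertical axis), 1 point per library, with horizontal lines for group means and bars for the SD of 3 libraries; triangles are libraries with a chrM share above 2%. The PTU/LID libraries lie above the chow libraries of their genotype in each panel except for KO in Nav2, where KO chow reaches 16.2 CPM and KO PTU/LID starts at 14.4 CPM.

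Thap7 and Bptf encode chromatin proteins. THAP7 is a zinc finger protein that, in human cells, binds histone tails and recruits HDAC3 and NCoR1 as a repressor. Thap7 lies on chromosome 16 at 17527959 to 17531151 (mm10) and had 4 regions, the first over its promoter and the others upstream of it. The promoter is shown because the region over it did not pass while upstream regions did. It is given from RefSeq (GRCm38.p6, chr16:17531003-17531302, minus strand, 250 bases before to 50 after the start), with GC boxes, GGGCGG on either strand, in capitals:
Thap7 promoter: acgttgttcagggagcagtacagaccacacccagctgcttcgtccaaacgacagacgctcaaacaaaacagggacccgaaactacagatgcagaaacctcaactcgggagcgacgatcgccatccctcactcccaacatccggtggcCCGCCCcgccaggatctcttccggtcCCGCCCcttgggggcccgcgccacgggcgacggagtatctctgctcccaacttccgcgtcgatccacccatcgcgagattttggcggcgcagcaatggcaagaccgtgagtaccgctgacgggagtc
It holds 2 GC boxes, a motif found in 35.7% of 32851 RefSeq promoters of this length, and 29 CpG dinucleotides, where the median promoter has 7. The region over it averaged 11.8 ± 3.74 CPM in KO PTU/LID and 10.4 ± 2.07 CPM in KO chow, a log2 fold change of 0.15 ± 0.26 (SE, adjusted p = 0.821). In WT it averaged 10.4 ± 2.23 CPM on PTU/LID and 11.4 ± 3.53 CPM on chow.

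The lead region of Thap7 lay 2.4 kb upstream of the start, at chr16:17533206-17533717. It held 7.16, 16.3 and 15.9 CPM in the KO PTU/LID libraries Ptulid_NCoRKO_27ac_211, _232 and _239, against 6.17, 2.98 and 3.82 CPM in the KO chow libraries Chow_NCoRKO_27ac_122, _146 and _190. In WT it held 17.6, 14.6 and 29.4 CPM in the PTU/LID libraries Ptulid_WT_27ac_135, _155 and _280, against 4.12, 3.87 and 4.79 CPM in the chow libraries Chow_WT_27ac_96, _99 and _106, and values of a group stand in this order throughout. The groups did not overlap in either genotype, although Ptulid_NCoRKO_27ac_211 was within 1 CPM of the highest KO chow library. The region rose in KO, the independent comparison, by 1.64 ± 0.31 (log2, SE; adjusted p = 5.27e-04), while the log2 fold change in WT was 2.25 ± 0.32. The neighbouring region 1.7 kb upstream rose with it, with a log2 fold change of 1.51 ± 0.26 in KO (adjusted p = 1.03e-04) and 2.16 ± 0.28 in WT. Among libraries with a chrM share above 2%, which leaves Ptulid_NCoRKO_27ac_211 alone against the 3 KO chow libraries, the log2 fold change of the lead region in KO was 0.73 (adjusted p = 0.464).

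Over its 4 regions, Thap7 summed to 49.7 ± 8.6 CPM in KO PTU/LID and 26.0 ± 0.579 CPM in KO chow, a log2 fold change of 0.95 ± 0.16 (adjusted p = 0.000291). In WT the sums were 63.1 ± 10.2 CPM on PTU/LID and 26.9 ± 3.57 CPM on chow. The gain was upstream of the gene: with regions inside the gene only, the log2 fold change was 0.18 in KO (adjusted p = 0.779) and -0.07 in WT. Of the nearest genes, Lrrc74b lay 11 kb from the lead region and had no region, and the gene sum of Lztr1 did not pass in KO (0.07 ± 0.21, adjusted p = 0.895). Among 6 other THAP family genes with a tested region, 0 passed in either genotype by edgeR, with a median log2 fold change of 0.07 in KO and 0.05 in WT. In KO 1 of them, Thap2, was higher at an unadjusted p below 0.05, and 1 passed by DESeq2.

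BPTF is the largest subunit of the nucleosome remodelling factor NURF and reads methylated and acetylated histone tails. Bptf, at chr11:107033081-107132147, had 7 regions, all inside the gene and within 6.6 kb of each other, 84.4 to 90.6 kb from the outermost RefSeq start. None lay at its promoter. The lead region at chr11:107043516-107044476 held 41.2, 48.6 and 51.6 CPM in KO PTU/LID, against 16.7, 9.3 and 15.1 CPM in KO chow. WT values were 38.5, 63.1 and 59.5 CPM on PTU/LID, against 16.8, 16.8 and 12.9 CPM on chow. Every PTU/LID library was more than 20 CPM above every chow library. The region rose in KO by 1.78 ± 0.21 (log2, SE; adjusted p = 6.5e-08), beside 1.82 ± 0.21 in WT, and this call was kept in all 19 alternative settings in which the region was fitted. Ptulid_NCoRKO_27ac_211 alone against KO chow gave 1.58 (adjusted p = 2.63e-05).

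The acetylated stretch of Bptf did not change evenly. The next region, 1.2 kb on, held 39.1, 46.9 and 45.5 CPM in KO PTU/LID, against 15.8, 17.5 and 9.93 CPM in KO chow, a log2 fold change of 1.62 ± 0.23 (adjusted p = 1.03e-05). WT livers had 18.2, 45.9 and 32.8 CPM on PTU/LID, against 19, 18.2 and 18.8 CPM on chow, where 1 PTU/LID library lay within the chow values. The region after that rose in KO by 0.79 ± 0.24 (adjusted p = 0.0409), and the other 4 did not pass (0.19 to 0.84). Summed, Bptf had 144.4 ± 7.34 CPM in KO PTU/LID and 61.7 ± 6.57 CPM in KO chow, a log2 fold change of 1.23 ± 0.14 (adjusted p = 2.76e-06). The sums were 136.5 ± 34.8 CPM in WT PTU/LID and 69.8 ± 2.98 CPM in WT chow, with a log2 fold change of 0.98 ± 0.15. Of 11 other tested NURF and ISWI remodelling genes, 0 passed in either genotype by edgeR or DESeq2, and at an unadjusted p below 0.05 1 was higher and 1 lower in KO and 1 lower in WT. The lead region lay 13.6 kb from the neighbouring 1810010H24Rik, whose 8 regions summed to 181.6 ± 10.4 CPM in KO PTU/LID and 144.9 ± 10.3 CPM in KO chow (log2 0.33 ± 0.11, adjusted p = 0.0729). With regions inside the gene only, it passed (0.88, adjusted p = 0.000616).

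**Figure D2:**
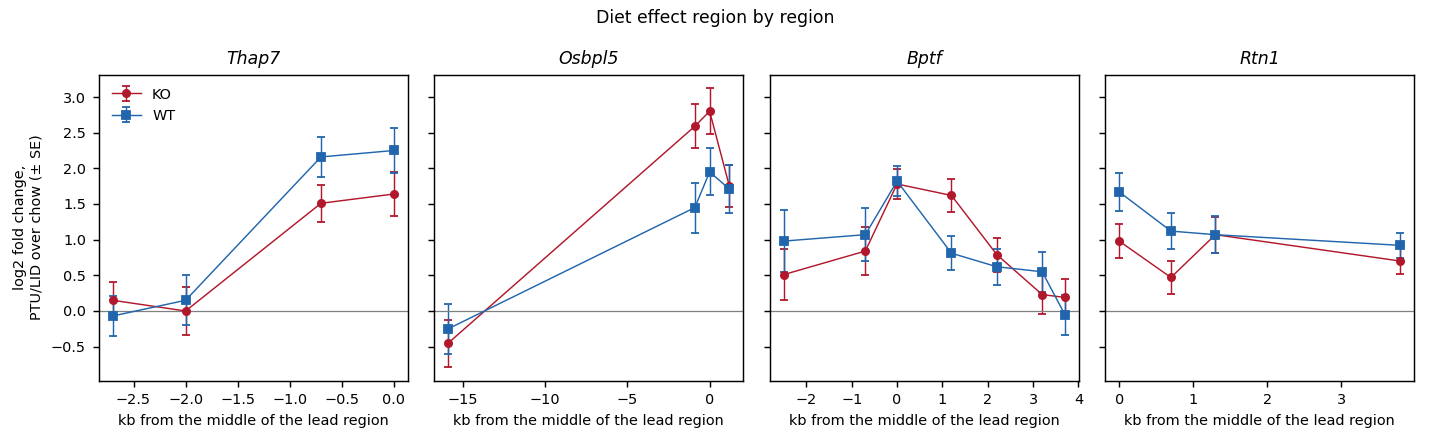
Log2 fold change of PTU/LID over chow (± SE, vertical axis) of each region of Thap7, Osbpl5, Bptf and Rtn1 against its distance in kb along the chromosome from the middle of the lead region, for KO (circles) and WT (squares). The change is near 0 at the Thap7 promoter, 2.7 kb from its lead region, and falls off within 3.7 kb at Bptf.

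Osbpl5 encodes a protein of the oxysterol-binding family that exchanges lipids where the endoplasmic reticulum meets the plasma membrane. The gene lies at chr7:143688762-143757008 and was chosen in both genotypes, so its diet values are a description. RefSeq lists an outer and an inner start, each under a region, and both promoters are shown because the mark differed between them. They are on the minus strand of GRCm38.p6, at chr7:143756959-143757258 and chr7:143740311-143740610, with GC boxes (GGGCGG) and CCAAT boxes on either strand in capitals:
Osbpl5 outer promoter: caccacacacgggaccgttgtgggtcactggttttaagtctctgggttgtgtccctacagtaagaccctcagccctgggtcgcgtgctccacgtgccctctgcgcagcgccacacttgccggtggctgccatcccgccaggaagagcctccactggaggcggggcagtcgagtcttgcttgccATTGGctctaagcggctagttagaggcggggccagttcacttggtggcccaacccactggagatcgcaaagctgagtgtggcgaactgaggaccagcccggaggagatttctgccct
Osbpl5 inner promoter: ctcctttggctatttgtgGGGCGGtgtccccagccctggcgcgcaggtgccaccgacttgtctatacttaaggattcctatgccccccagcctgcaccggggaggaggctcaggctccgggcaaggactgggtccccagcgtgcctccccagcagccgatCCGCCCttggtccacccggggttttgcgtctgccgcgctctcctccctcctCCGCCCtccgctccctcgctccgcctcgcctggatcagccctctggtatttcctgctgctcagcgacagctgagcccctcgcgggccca
The outer one holds 1 CCAAT box, which 37.4% of promoters have, and 16 CpG. The inner one holds 3 GC boxes and 21 CpG. The hexamer bound by thyroid hormone receptors, AGGTCA on either strand, is in neither, and 16.3% of all promoters hold it. Nor do they hold 2 copies of it in 1 direction with 4 bases between them, as 0.0152% do.

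Around the outer start of Osbpl5 3 regions within 2.6 kb were higher on PTU/LID in both genotypes. The lead region, 0.9 kb inside the start at chr7:143755622-143756577, held 19.7, 24.4 and 36.6 CPM in KO PTU/LID, against 2, 5.21 and 4.43 CPM in KO chow. In WT the values were 12.2, 26.3 and 29.8 CPM on PTU/LID, against 6.97, 4.14 and 6.61 CPM on chow. The diets did not overlap in either genotype. The log2 fold change was 2.8 ± 0.32 in KO and 1.95 ± 0.33 in WT. Within the libraries with a chrM share above 2%, that in WT was 1.15 from 1 PTU/LID and 2 chow libraries.

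The region over the outer promoter averaged 17.5 ± 3.8 CPM in KO PTU/LID and 5.30 ± 1.7 CPM in KO chow, and 13.5 ± 6.74 CPM in WT PTU/LID and 4.15 ± 0.3 CPM in WT chow. Its log2 fold change was 1.75 ± 0.29 in KO and 1.71 ± 0.33 in WT. The inner promoter region, 15.9 kb from the lead region, averaged 4.36 ± 1.77 CPM in KO PTU/LID and 5.71 ± 1.99 CPM in KO chow, and 4.84 ± 2.03 CPM in WT PTU/LID and 5.63 ± 0.478 CPM in WT chow. Osbpl5 summed to 67.8 ± 13.9 CPM in KO PTU/LID and 18.5 ± 5.91 CPM in KO chow, and to 51.0 ± 16.6 CPM in WT PTU/LID and 20.1 ± 2.02 CPM in WT chow.

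Of 8 other tested genes of the oxysterol-binding family, Osbpl3 was higher on PTU/LID in KO and 0 passed in WT by edgeR or DESeq2, where 3 were higher and 1 lower at an unadjusted p below 0.05. Osbpl3 averaged 25.9 ± 5.19 CPM in KO PTU/LID and 10.2 ± 2.18 CPM in KO chow (log2 1.37 ± 0.25, adjusted p = 0.000775). It averaged 25.9 ± 6.54 CPM in WT PTU/LID and 17.4 ± 5.88 CPM in WT chow (log2 0.61 ± 0.25, adjusted p = 0.135), and passed in WT within the libraries with a chrM share up to 2% (1, adjusted p = 0.0329), a value that rests on 1 chow library, Chow_WT_27ac_106, the lowest of the 3 at 11.7 CPM. Next to Osbpl5, Mrgprg, a Mas-related G protein-coupled receptor gene 7.6 kb from the lead region, had 51.7 ± 4.68 CPM in KO PTU/LID and 20.7 ± 5.59 CPM in KO chow. In WT it had 39.4 ± 4.22 CPM on PTU/LID and 28.5 ± 5.34 CPM on chow.

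Rtn1 encodes a reticulon, a membrane protein that curves the endoplasmic reticulum and is best known from neurons and endocrine cells. It lies at chr12:72211749-72409054, and its 4 regions stood within 4.6 kb of each other, 120.1 to 124 kb inside the outermost RefSeq start. An inner start of Rtn1 was nearer, with the regions 48.4 to 52.2 kb upstream of it. All 4 were higher on PTU/LID in WT, the comparison that chose the gene, and 3 of them also rose in KO. The lead region at chr12:72284794-72285371 held 11.3, 17.1 and 15.9 CPM in KO PTU/LID, against 5.08, 9.12 and 8.41 CPM in KO chow. WT values were 15.2, 18.1 and 14.8 CPM on PTU/LID, against 5.7, 4.69 and 4.79 CPM on chow. The diets did not overlap, and the gap was wider in WT. The log2 fold change was 0.98 ± 0.24 in KO (adjusted p = 0.00812) and 1.67 ± 0.27 in WT.

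The region with the most acetylation in Rtn1, 3.8 kb from the lead region, averaged 46.1 ± 8 CPM in KO PTU/LID and 28.5 ± 4.42 CPM in KO chow (log2 0.70 ± 0.18, adjusted p = 0.00888). The third region rose in KO by 1.07 ± 0.25 (adjusted p = 0.00449), and the second did not pass (0.47 ± 0.23, adjusted p = 0.264). The summed level of Rtn1 was 102.9 ± 18.3 CPM in KO PTU/LID and 60.8 ± 9.63 CPM in KO chow, a log2 fold change of 0.77 ± 0.14 (adjusted p = 0.000601). In WT it was 105.8 ± 4.43 CPM on PTU/LID and 51.2 ± 3.43 CPM on chow, a log2 fold change of 1.04 ± 0.14. The call of the lead region in KO was lost without Chow_NCoRKO_27ac_122 (0.77, adjusted p = 0.0957) or Ptulid_NCoRKO_27ac_232 (0.87, adjusted p = 0.0696), with a term for the chrM share (0.82, adjusted p = 0.0939) and for Ptulid_NCoRKO_27ac_211 alone against KO chow (0.57, adjusted p = 0.512). The gene sum lost its call only in the last of these settings (0.46, adjusted p = 0.112).

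Rtn4, the reticulon known as Nogo, was lower on PTU/LID in both genotypes: 53.0 ± 6.9 CPM in KO PTU/LID and 72.2 ± 7.75 CPM in KO chow (log2 -0.44 ± 0.13, adjusted p = 0.0328), and 46.8 ± 2.77 CPM in WT PTU/LID and 68.4 ± 0.847 CPM in WT chow (log2 -0.55 ± 0.13, adjusted p = 0.0118). Without any 1 of the 3 KO chow libraries, Ptulid_NCoRKO_27ac_211 or Ptulid_NCoRKO_27ac_239, the call in KO was lost (adjusted p 0.0549 to 0.176), and without Ptulid_WT_27ac_280 that in WT (0.0706), as it was within the libraries with a chrM share above 2% (0.252). Rtn3 did not pass in either genotype.

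Nrg2 encodes a neuregulin, a growth factor ligand of ERBB receptor tyrosine kinases. It lies at chr18:36014581-36197532 and had 3 regions. The lead region, at chr18:36117679-36118902, held 21.2, 32.7 and 37.8 CPM in KO PTU/LID, against 17.8, 19 and 12.4 CPM in KO chow. WT livers had 29.6, 40.3 and 32.2 CPM on PTU/LID, against 9.82, 11.9 and 9.26 CPM on chow. PTU/LID was above chow throughout, and all KO chow libraries were above all WT chow libraries. The region rose in KO by 0.92 ± 0.21 (log2, SE; adjusted p = 0.00383), beside 1.73 ± 0.23 in WT. The other 2 regions did not pass in KO (0.44 ± 0.34 and -0.12 ± 0.38).

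The sum of Nrg2 was 43.9 ± 8.02 CPM in KO PTU/LID and 26.6 ± 5.03 CPM in KO chow, a log2 fold change of 0.74 ± 0.18 (adjusted p = 0.0132). In WT it was 49.4 ± 6.08 CPM on PTU/LID and 19.4 ± 5.45 CPM on chow, a log2 fold change of 1.38 ± 0.2. Without Chow_NCoRKO_27ac_190 the call in KO was lost for the lead region (0.75, adjusted p = 0.06) and the sum (0.60, adjusted p = 0.106), as it was without Ptulid_NCoRKO_27ac_239 (0.74, adjusted p = 0.0692, and 0.61, adjusted p = 0.106). With the chrM term the lead region gave 0.69 (adjusted p = 0.0794), and Ptulid_NCoRKO_27ac_211 alone against KO chow gave 0.38 (adjusted p = 0.593) and, for the sum, 0.40 (adjusted p = 0.389).

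Of 5 other tested neuregulin and ERBB genes, 0 were higher by edgeR or DESeq2, 1 in each genotype at an unadjusted p below 0.05, and Erbb4 was lower. Erbb4, a receptor of neuregulins, fell to 100.8 ± 18 CPM in KO PTU/LID, against 164.9 ± 21 CPM in KO chow (log2 -0.70 ± 0.13, adjusted p = 0.000913), and to 86.9 ± 9.99 CPM in WT PTU/LID, against 128.8 ± 6.69 CPM in WT chow (log2 -0.57 ± 0.13, adjusted p = 0.0108). The call in WT was lost without Chow_WT_27ac_106 (adjusted p = 0.0512) or Ptulid_WT_27ac_155 (adjusted p = 0.076) and within the libraries with a chrM share above 2% (0.0965), and that in KO was kept in all 21 alternative settings in which the gene was fitted. Egfr and Erbb3 had several regions each and did not pass in either genotype by edgeR. Egfr was close to passing as lower in WT, at 489.2 ± 48.2 CPM in WT PTU/LID and 627.1 ± 95.9 CPM in WT chow (log2 -0.36 ± 0.11, adjusted p = 0.0507 by edgeR), and passed by DESeq2 (-0.35, adjusted p = 0.0479).

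Nav2 encodes a neuron navigator, a cytoskeletal protein first described as induced by retinoic acid. With 651.0 kb (chr7:48959063-49610090) and 35 regions it is the longest of the 8 genes, and 4 of its regions were higher on PTU/LID in WT, the comparison that chose it. In KO 0 of the 35 were higher and 0 lower by edgeR and by DESeq2, and at an unadjusted p below 0.05 2 were higher and 5 lower. The lead region at chr7:49351357-49351910 held 27.1, 14.4 and 17.1 CPM in KO PTU/LID, against 15.6, 16.2 and 12.2 CPM in KO chow. In WT the values were 34.4, 21.3 and 25.7 CPM on PTU/LID, against 9.5, 8.28 and 6.78 CPM on chow. The KO diets overlapped and the WT diets did not. The log2 fold change was 0.38 ± 0.23 in KO (adjusted p = 0.387) and 1.74 ± 0.25 in WT. With a term for the chrM share the value in KO was 0.77 (adjusted p = 0.0381), and it was 0.89 (adjusted p = 0.0506) for Ptulid_NCoRKO_27ac_211 alone against KO chow.

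The 4 Nav2 regions that were higher in WT lay in 2 short stretches within 48.1 kb. Next to the lead region, 1.3 kb away, 1 of them averaged 8.02 ± 1.25 CPM in KO PTU/LID and 4.87 ± 1.65 CPM in KO chow (log2 0.75 ± 0.3, adjusted p = 0.143), and 8.72 ± 3.18 CPM in WT PTU/LID and 2.94 ± 0.342 CPM in WT chow. The most strongly acetylated, 46.7 kb from the lead region, held 43, 51.2 and 41.1 CPM in KO PTU/LID, against 44.1, 40.7 and 35.5 CPM in KO chow. WT values were 43.9, 46.3 and 41.1 CPM on PTU/LID, against 24.1, 21.5 and 22.6 CPM on chow. WT chow was the low group, and the other 3 groups overlapped. The log2 fold change was 0.17 ± 0.16 in KO (adjusted p = 0.633) and 0.94 ± 0.18 in WT. In the next region WT chow was again the lowest on average, with 15.6 ± 2.44 CPM in KO PTU/LID, 16.9 ± 1.68 CPM in KO chow, 16.8 ± 5.27 CPM in WT PTU/LID and 8.46 ± 1.8 CPM in WT chow.

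KO over WT values of Nav2 are a description, since they share the WT libraries that chose the gene. On chow the mean was higher in KO than in WT in 29 of 35 regions, with a median log2 difference of 0.31, where the median over all regions was -0.01. In 9 of the 35 every KO chow library was above every WT chow library. On PTU/LID the median difference was -0.07 and the groups were separated in that direction in 4 regions. No share over all regions is set beside these 2 counts of separated regions or beside the 29 of 35, so nothing is read from any of them. One region, 325.0 kb on the 5′ side of the lead region, was higher in KO on both diets, at 20.4 ± 2.11 CPM in KO PTU/LID and 22.4 ± 1.1 CPM in KO chow, and 8.63 ± 1.8 CPM in WT PTU/LID and 11.1 ± 4.8 CPM in WT chow. It was singled out after its values were seen, and its log2 fold change between diets was -0.14 ± 0.22 in KO and -0.34 ± 0.26 in WT.

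**Figure D3:**
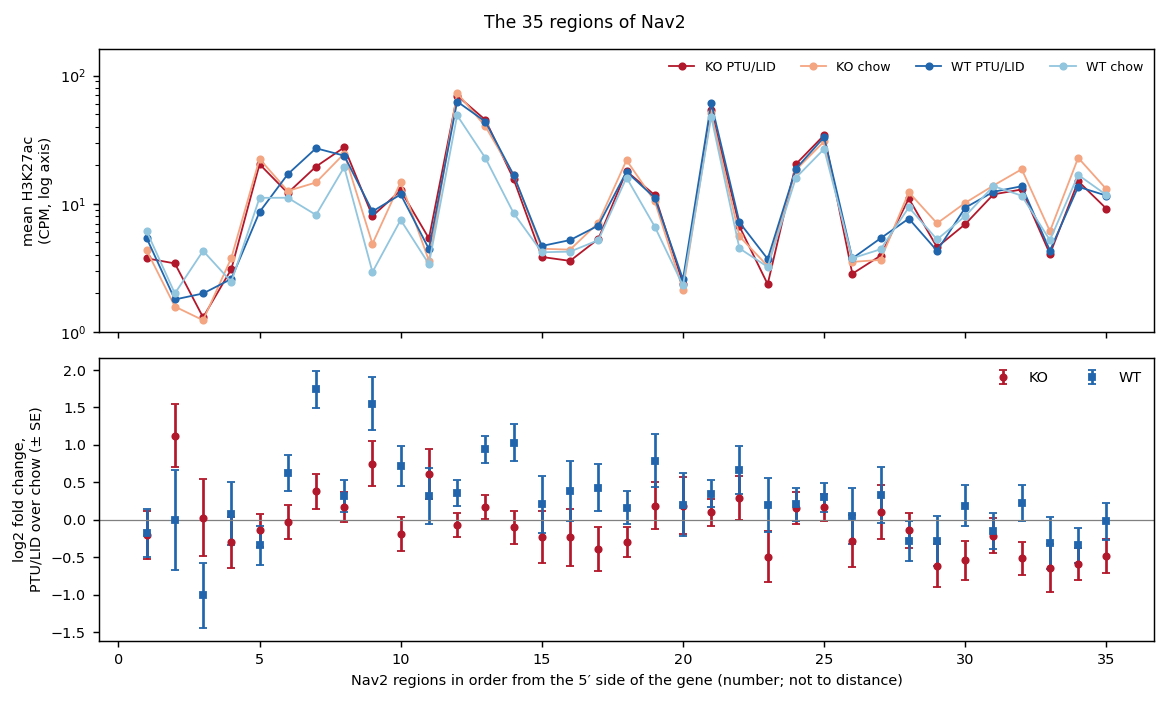
The 35 regions of Nav2 in order along the gene from its 5′ side (horizontal axis, region number, not to distance): mean H3K27ac of the 4 groups in CPM on a log axis (top) and log2 fold change of PTU/LID over chow ± SE for KO (circles) and WT (squares) (bottom). WT values reach 1.74 at the lead region, number 7, where KO is at 0.38.

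The sum over Nav2 was 543.7 ± 52.9 CPM in KO PTU/LID and 553.0 ± 19.4 CPM in KO chow, a log2 fold change of -0.02 ± 0.1 (adjusted p = 0.929). It was 527.3 ± 30.5 CPM in WT PTU/LID and 420.9 ± 36.6 CPM in WT chow, a log2 fold change of 0.33 ± 0.1. Its protein-coding neighbours on the 5′ side differed in sign from the lead region. E2f8, an atypical E2F repressor gene, fell to 150.6 ± 41.6 CPM in KO PTU/LID, against 309.4 ± 45.8 CPM in KO chow (log2 -1.03 ± 0.16, adjusted p = 0.000518), and had 61.8 ± 10.4 CPM in WT PTU/LID and 181.3 ± 7.63 CPM in WT chow. Csrp3, the muscle LIM protein gene, fell by 0.79 ± 0.19 on the log2 scale in KO (adjusted p = 0.0203), a call lost without Chow_NCoRKO_27ac_122 (adjusted p = 0.059), Chow_NCoRKO_27ac_146 (0.0719) or Ptulid_NCoRKO_27ac_239 (0.087), with the chrM term (0.0582) and with regions inside the gene only (0.0879). E2f8 lay 469.6 kb and Csrp3 503.6 kb from the lead region. The only other navigator gene with a region, Nav1, did not pass in either genotype.

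Iqck encodes a protein with an IQ motif, a short helix that binds calmodulin. The gene lies at chr7:118855752-118972120, was chosen in KO and had 2 adjoining regions 79.3 and 80.2 kb inside its start. The lead region at chr7:118935615-118936309 held 25.6, 30.9 and 42.9 CPM in KO PTU/LID, against 1.63, 9.3 and 4.13 CPM in KO chow. WT livers had 10.5, 11.8 and 12.7 CPM on PTU/LID, against 5.07, 9.39 and 4.46 CPM on chow. The diets did not overlap in either genotype, but the WT groups were less than 2 CPM apart at their nearest. The log2 fold change was 2.74 ± 0.37 in KO, and 0.93 ± 0.41 in WT did not pass (adjusted p = 0.221). It was 1.48 in WT (adjusted p = 0.00587) in the libraries with a chrM share up to 2%, with Chow_WT_27ac_106 as the only chow library, and 0.51 (adjusted p = 0.881) in those above.

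The other region of Iqck, at chr7:118934568-118935463, held 34.5, 42.8 and 46.6 CPM in KO PTU/LID, against 7.44, 7.63 and 6.27 CPM in KO chow. In WT the values were 14, 15.5 and 24.4 CPM on PTU/LID, against 8.23, 11.6 and 5.29 CPM on chow. This region rose in WT by 1.17 ± 0.26 (adjusted p = 0.00631), beside 2.55 ± 0.24 in KO. Each KO PTU/LID library was above each WT PTU/LID library in both regions. The sum was 82.0 ± 15 CPM in KO PTU/LID and 13.2 ± 4.67 CPM in KO chow, a log2 fold change of 2.65 ± 0.25. It was 31.5 ± 6.2 CPM in WT PTU/LID and 16.1 ± 6.48 CPM in WT chow, a log2 fold change of 1.03 ± 0.28 (adjusted p = 0.0316). The call in WT was lost without Chow_WT_27ac_96 (0.99, adjusted p = 0.101), Chow_WT_27ac_106 (0.73, adjusted p = 0.123), Ptulid_WT_27ac_155 (1.08, adjusted p = 0.0762) or Ptulid_WT_27ac_280 (0.85, adjusted p = 0.148), and with the chrM term (1, adjusted p = 0.0626). Within libraries above 2% it was 0.49 (adjusted p = 0.577), and within the others 1.71 (adjusted p = 8.77e-05).

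Gprc5b, an orphan G protein-coupled receptor gene that overlaps the far end of Iqck and lies 36.1 kb from the lead region, had values of the same kind. It held 12.9, 17.1 and 26.6 CPM in KO PTU/LID, against 3.55, 5.3 and 3.29 CPM in KO chow. WT values were 18.3, 11.7 and 8.3 CPM on PTU/LID, against 8.74, 7.92 and 5.48 CPM on chow. KO diets were separated and WT diets overlapped, with a log2 fold change of 2.25 ± 0.32 in KO and 0.80 ± 0.33 in WT (adjusted p = 0.135). Of 5 other tested IQ motif genes, Iqcb1, a ciliary protein gene, was higher on PTU/LID in KO, with 1 region at 4.2 ± 0.753 CPM in KO PTU/LID and 1.66 ± 0.924 CPM in KO chow (log2 1.33 ± 0.4, adjusted p = 0.0389). That call was lost in 8 of 20 alternative settings, without any 1 of the 3 KO chow libraries, Ptulid_NCoRKO_27ac_232 or Ptulid_NCoRKO_27ac_239 among them (adjusted p 0.0503 to 0.207), and DESeq2 gave the gene no adjusted p.

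OMA1 is a protease of the mitochondrial inner membrane that cleaves the fusion protein OPA1 under stress. Oma1 lies at chr4:103311875-103371869 and had a region at its promoter and a lead region 14 kb beyond its far end. The promoter is shown because the region over it did not pass, and comes from RefSeq (GRCm38.p6, chr4:103313596-103313895, plus strand) with GC boxes in capitals:
Oma1 promoter: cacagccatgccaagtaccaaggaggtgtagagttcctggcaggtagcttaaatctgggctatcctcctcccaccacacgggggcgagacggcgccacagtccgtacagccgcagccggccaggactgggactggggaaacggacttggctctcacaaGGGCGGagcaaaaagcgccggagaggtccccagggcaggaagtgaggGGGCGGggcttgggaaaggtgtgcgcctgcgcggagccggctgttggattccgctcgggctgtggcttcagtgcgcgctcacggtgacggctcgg
It holds 2 GC boxes and 23 CpG, and neither AGGTCA nor its spaced repeat. The region over it averaged 22.4 ± 2.87 CPM in KO PTU/LID and 23.1 ± 1.59 CPM in KO chow, and 23.6 ± 3.63 CPM in WT PTU/LID and 22.6 ± 3.35 CPM in WT chow. In WT, the independent comparison, its log2 fold change was 0.06 ± 0.20 (adjusted p = 0.912).

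The lead region of Oma1, at chr4:103385525-103386306, held 28.1, 27.2 and 20.4 CPM in KO PTU/LID, against 5.08, 4.65 and 5.65 CPM in KO chow. WT livers had 13.7, 13.1 and 17 CPM on PTU/LID, against 6.97, 9.66 and 11.4 CPM on chow. The 4 groups did not overlap, with KO PTU/LID the highest and KO chow the lowest. The log2 fold change was 2.28 ± 0.24 in KO, and that in WT, 0.62 ± 0.24, did not pass (adjusted p = 0.145). It was 0.71 in WT within the libraries with a chrM share above 2% (adjusted p = 0.532) and 0.42 within the others (adjusted p = 0.482). The sum over both regions was 52.5 ± 2.45 CPM in KO PTU/LID and 30.6 ± 1.45 CPM in KO chow, a log2 fold change of 0.78 ± 0.14. It was 40.7 ± 4.82 CPM in WT PTU/LID and 34.8 ± 5.07 CPM in WT chow, a log2 fold change of 0.21 ± 0.15 (adjusted p = 0.414). With regions up to 10 kb from a gene only, the lead region drops out and the log2 fold change of Oma1 in KO is -0.01. The next protein-coding gene on that side, Dab1, lay 233.6 kb away. On the other side 4921539E11Rik, 95 kb from the lead region, rose to 39.8 ± 4.86 CPM in WT PTU/LID, against 26.9 ± 3.42 CPM in WT chow (log2 0.57 ± 0.18, adjusted p = 0.0463), a call lost in 10 of 22 alternative settings, each of the 6 WT libraries left out among them (adjusted p 0.0729 to 0.196). Of 10 other tested genes of mitochondrial inner membrane quality control, Opa1 among them, 0 passed in either genotype by edgeR or DESeq2, and 1 was higher in WT at an unadjusted p below 0.05.

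**Figure D4:**
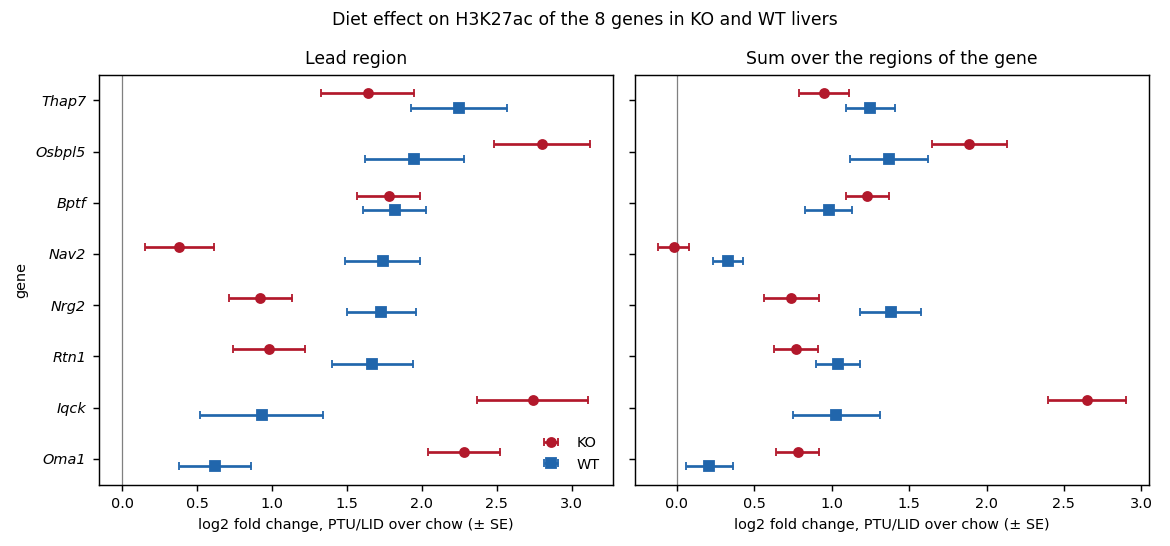
Log2 fold change of PTU/LID over chow (± SE, horizontal axis) for the lead region (left) and the sum over the regions (right) of the 8 genes, in KO (circles) and WT (squares). Thap7, Nav2, Nrg2 and Rtn1 are higher in WT in both panels, and Osbpl5, Iqck and Oma1 higher in KO.

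The difference between genotypes in the diet effect depends on which genotype chose the gene and was therefore not tested. For the sums, the effect in KO minus that in WT was -0.31 ± 0.23 (log2, SE) for Thap7, -0.64 ± 0.27 for Nrg2, -0.28 ± 0.2 for Rtn1 and -0.35 ± 0.14 for Nav2. Bptf, although chosen in WT, was at 0.25 ± 0.2. Osbpl5, chosen in both, was at 0.52 ± 0.35. Iqck and Oma1, chosen in KO, were at 1.62 ± 0.38 and 0.56 ± 0.2.

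**Figure D5:**
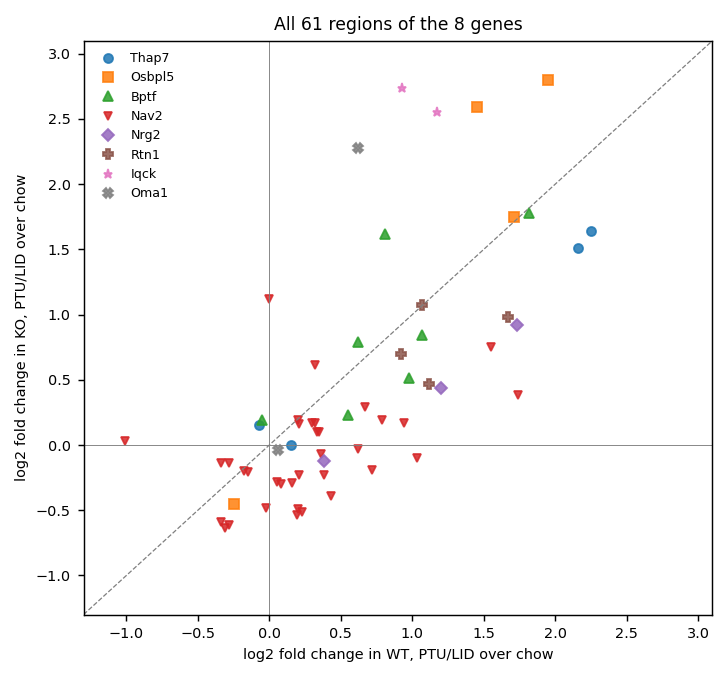
Log2 fold change of PTU/LID over chow in KO (vertical axis) against that in WT (horizontal axis) for the 61 regions, 1 point each, marked by gene, with the line of equal change dashed. Both Iqck regions and the lead region of Oma1 lie far above the line, the Oma1 promoter near 0 on both axes, the Bptf lead region close to the line at 1.78 in KO and 1.82 in WT, and most Nav2 regions near 0 in KO.

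Per kb of region, the lead regions can be set against each other and against the median of all regions, which was 18.7 CPM per kb in both PTU/LID groups. In KO PTU/LID the order was Bptf at 49 ± 5.58 CPM per kb, Iqck at 47.6 ± 12.7, Nav2 at 35.2 ± 12.1, Oma1 at 32.3 ± 5.39, Osbpl5 at 28.1 ± 9.12, Thap7 at 25.6 ± 10.1, Rtn1 at 25.5 ± 5.35 and Nrg2 at 25 ± 6.92, where each neighbouring pair but Iqck and Nav2 differed by less than the smaller of their SDs. In KO chow Nav2 stood above the rest at 26.5 ± 3.86 CPM per kb, and Osbpl5 was lowest at 4.06 ± 1.75. In WT PTU/LID Bptf was highest at 55.9 ± 13.8 CPM per kb and Iqck lowest at 16.8 ± 1.65, below the median of all regions. In WT chow they ran from 6.18 ± 1.61 for Osbpl5 to 16.1 ± 2.35 CPM per kb for Bptf, beside a median of all regions of 19.6. A choice by the fold change of PTU/LID over chow favours low chow values, so nothing is read from the place of the chow levels below that median in the choosing genotype.

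The lead regions lay 0.9 to 72.1 kb from the nearest RefSeq start of any gene (Nrg2 was not placed). The nearest were those of Osbpl5, at 0.9 kb, and Nav2, at a rounded 1.0 kb that is just over 1 kb. Of the regions that were higher on PTU/LID, 9.93% in KO and 24.1% in WT lay within 1 kb of a start, against 24.2% of all regions with a distance. Of the 61 regions, 4 overlapped a promoter of their own gene, and 1 of these, at the outer start of Osbpl5, was higher on PTU/LID. The 3 regions of Nrg2 could not be assessed for this. Of the regions higher in KO, the 15 of these genes ran from 0.70 to 2.8 on the log2 scale, where the median of all higher regions was 0.99. In WT the 17 ran from 0.81 to 2.25, where that median was 0.89. Both ranges include the values that chose the genes, so nothing is read from their place against the medians.

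Other genes had profiles close to those of the 8. Likeness was the root mean square difference of centred log2 CPM of gene sums over the 12 libraries, among genes over 1 Mb away with a mean count of at least 50. The closest to Thap7 was Mybpc1 at 0.167, where the median over 9363 genes was 0.610, and to Rtn1 it was Adora1 at 0.165. B3galt5 was second for both Thap7 (0.187) and Bptf (0.227), and Rgs8 for both Nrg2 (0.238) and Rtn1 (0.175). Mup21 was closest to Bptf at 0.209 and Gm21885 to Nrg2 at 0.234. Osbpl5 was closest to Iqck, at 0.478 where the median gene was at 1.12, with Kcnk3 next at 0.488. To Osbpl5 itself the nearest were 1700113H08Rik (0.255) and Dclre1a (0.349). Oma1 was nearest to Il17rb (0.131) and Gas2 (0.134), and Nav2 to Slc30a10 (0.0628) and Ccdc25 (0.0744). Kcnk3 averaged 163.5 CPM in KO PTU/LID and 48.0 CPM in KO chow, and 59.5 CPM in WT PTU/LID and 44.3 CPM in WT chow.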

How the data were processed

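H3K27ac ChIP-seq libraries of mouse liver were compared in 4 groups of 3. The authors deposited whole-number read counts per library over 52645 shared regions. The submitters' processing notes name mm10 as the build, Bowtie2 2.2.1 and, as further tools, bedtools 2.26.0, MACS2 2.1.1, Picard 2.8.1 and bcl2fastq 2.17.1.14. They do not say how the shared regions were made. The lowest deposited count is 1. Since levels are relative to the counts in these regions, a global shift of H3K27ac would not show.

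The 8 genes and all lists were chosen with earlier results of these data known. Regions were assigned to 21883 protein-coding genes of RefSeq (GRCm38.p6), a region inside more than 1 gene counting for each (737 regions). Counts, per region or summed per gene, were tested with edgeR 4.0.16 in R 4.3.3 (TMM, filterByExpr with a minimum count of 10, robust quasi-likelihood, all 12 libraries, 1 mean per group), with Benjamini-Hochberg adjustment over 52606 regions or 11581 genes. Standard errors were derived from the fold change and its F statistic. CPM of regions and of sums are on different scales. On simulated data for the diet in WT, gene sums changed by 2 times were recovered in 86.6% of 67 cases and regions in 41.8%. The simulated counts took their spread from the overall trend and had no differences in chrM share between libraries. These rates therefore need not hold for the real data.

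Named were the 8 genes, their lead region and up to 3 further regions with the highest change in the other genotype; family members and the nearest 2 genes per side where they passed or were the other candidate for a lead region; the 2 most alike genes; and Dio1. Alternatives were DESeq2 1.42.0, its size factors, no filter, the 6 libraries of a genotype, other assignment distances, chrM regions left out, a chrM term, fits within chrM sets, and each library left out. DESeq2 gave 17 of the 61 regions no adjusted p in WT, and features without one are not counted as passing. No 2 libraries of a group agreed within sampling noise.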

Additional observations from a re-analysis of the deposited data

How the results depend on the processing

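Within the libraries of chrM share above 2%, the number of regions that passed was 408 in WT, against 1949 with all libraries, and 1923 in KO, against 3269. Gene sums that passed in WT numbered 236, against 883. Of the 7 independent tests, 1 lead region and 1 gene sum, both of Bptf, passed there, against 4 and 5. KO chow has no library in the other set. With 1 library left out in turn, 669 to 3612 regions passed in WT and 1794 to 4017 in KO, 338 to 1601 gene sums in WT and 466 to 1187 in KO, and 3 to 4 lead regions and 4 to 5 gene sums of the independent tests. The cause was not tested. Leaving out 1 library where it left an arm with 2 kept the shared spread estimate, and a lone library within a chrM set was assumed to vary like the others. Sums depended on which regions join a gene: with regions inside the gene only, Thap7 in WT was at -0.07 and Oma1 in KO at -0.01, and with regions up to 10 kb Oma1 in KO was at -0.01. Of 284 alternative values of the independent tests, 261 kept their direction and their side of the threshold, 21 lost the call and 2 gained it.

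No paired analysis was possible because no replicate number is shared between H3K27ac groups. The lowest counts in a lead region were 9 reads at Iqck and 11 at Osbpl5, each in 1 library.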
